A study of Mus musculus with 14 samples.

Results

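Genes of surfactant and of other products of the alveolar type 2 cell were read out of lung arrays of wild type mice and of mice without the tetraspanin CD151 or CD9. The set was fixed by name as 10 genes, namely Sftpa1, Sftpb, Sftpc, Sftpd, Abca3, Napsa, Lamp3, Slc34a2, Cxcl15 and S100g, and its probe sets were those annotated with exactly 1 of these symbols. Of the 10 genes 9 had such a probe set, with 15 probe sets in all, and Lamp3 had none and was not analysed here. All 9 lay above the filter on low signal, among 12985 genes tested of 18193 measured. The mice were of the C57BL/6 background and 20 weeks old. Wild type gave 4 samples, numbered 1, 3, 4 and 5, CD151KO (no CD151) gave 5 and CD9KO (no CD9) gave 5, with 1 array each and no treatment in the labels. Neither the deleted part of each gene nor the cells in which it was deleted is given in the sources used here. Whether the arrays of a group stand for different animals is not stated, and p-values here cover the array-to-array spread, part of which may be technical.

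Type 2 cells are cuboidal cells of the alveolar wall that make, store and take up again the surfactant film, a mixture of phospholipids and proteins that lowers surface tension. The small hydrophobic proteins SP-B and SP-C (Sftpb, Sftpc) act in the film, while the collectins SP-A and SP-D (Sftpa1, Sftpd) bind microbes and take part in surfactant turnover. Lipid is loaded into lamellar bodies by the transporter Abca3, the aspartic protease napsin A (Napsa) takes part in processing SP-B, and the phosphate transporter Slc34a2 takes up phosphate. Cxcl15 (lungkine) is a chemokine that attracts neutrophils and is made by lung epithelium, and S100g (calbindin-D9k) is a small calcium-binding protein.

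Each array gave 45101 probe sets in normalized linear signal units, with array medians between 84.1 and 86.2. The knocked-out genes followed the labels. Cd151 had a signal of 5330 ± 372 on the wild type arrays (SD, n = 4) against 1058 ± 17.7 on those of CD151KO (n = 5), and Cd9 had 8096 ± 69.4 on the wild type arrays against 667 ± 52.3 on those of CD9KO (n = 5). The spiked bacterial control BioB, a measure of the hybridization and not of the lung, read 314 to 354 in wild type, 363 to 424 in CD151KO and 361 to 444 in CD9KO, so wild type lay below both knockouts. Its part in the results against wild type was not tested. All fold changes are on the log2(signal + 16) scale. Fewer type 2 cells and less RNA per cell cannot be told apart in whole lung, and the signals of different probe sets are not on 1 scale, so no gene is set above another.

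In lungs without CD151, Cxcl15 and S100g rose against wild type. Sftpa1, Sftpb and Sftpd did not pass, with log2 differences of 0.03, 0.07 and -0.02, and the signal of Sftpc sat at the top of the scale. Cxcl15 was 1.21-fold higher and S100g 1.25-fold higher, and the lipid transporter gene Abca3 had a difference of 1.19-fold that did not pass. Of the 9 genes tested 2 rose, 0 fell and 7 did not pass, beside 0.778% of all genes tested that passed in either direction, 0.454% that rose and 0.323% that fell. An unadjusted p under 0.05 was found for 3 of the 9 and for 11.1% of all genes. The median log2 difference of the 9 genes was 0.03, against 0.01 over all genes tested. For 3 of 9 genes every CD151KO array lay above every wild type array, which held for 2.84% of all genes tested, while 0 of 9 lay wholly below, against 1.69%, so that groups were free of overlap for 4.54% of all genes.

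**Figure D1:**
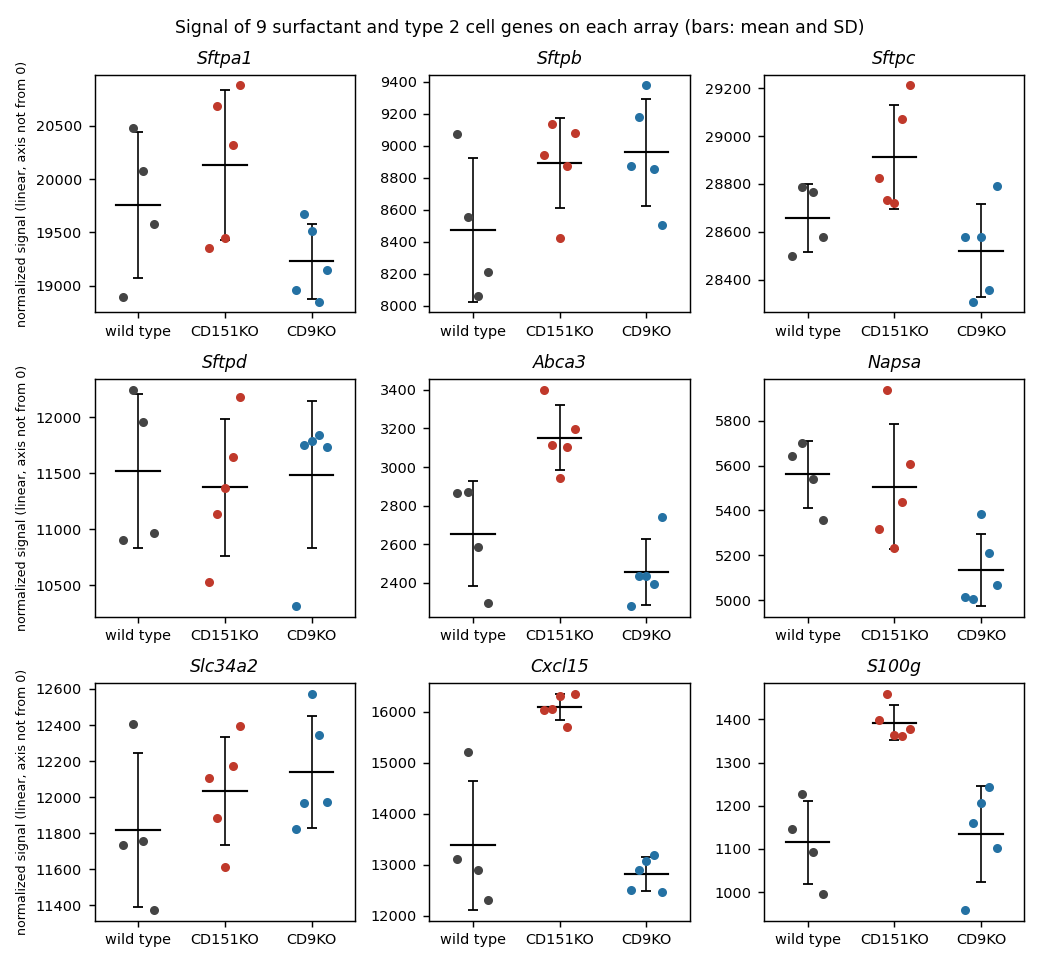
Normalized signal (linear, vertical axes not from 0) of the main probe set of each of the 9 genes, 1 point per array in wild type (n = 4), CD151KO (n = 5) and CD9KO (n = 5), with mean and SD as black bars. Cxcl15, S100g and Abca3 have all CD151KO points above all points of the other groups, and in the other 6 panels the 3 groups overlap.

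Cxcl15 had the smallest p of the 9 genes. Wild type arrays 1, 3, 4 and 5 read 13116, 15208, 12884 and 12300 signal units. CD151KO arrays 1 to 5 read 16037, 16046, 16314, 15704 and 16348, and CD9KO arrays 1 to 5 read 12499, 12896, 13076, 13192 and 12455. The 5 CD151KO arrays lay close together above all others, and wild type number 3 was the nearest of the rest. The mean rose from 13377 ± 1268 (SD, n = 4) to 16090 ± 260 (n = 5), a log2 difference of 0.27 (SE 0.05, limma adjusted p = 0.0162). A second probe set of Cxcl15 ran the same way, from 8963 ± 1195 to 11307 ± 336 (log2 0.34, adjusted p = 0.0243 when every probe set was tested). The call for Cxcl15 ended without wild type number 4 (adjusted p = 0.0627), without both number 1 arrays, from wild type and CD151KO (0.0590) and with only the compared groups in the fit (0.0718), and it passed in the other 24 of 27 alternatives.

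S100g read 1145, 1227, 1093 and 997 on wild type arrays 1, 3, 4 and 5. On CD151KO arrays 1 to 5 it read 1398, 1459, 1364, 1363 and 1378, and on CD9KO arrays 959, 1161, 1208, 1243 and 1103. All CD151KO arrays exceeded all others, and wild type and CD9KO overlapped. The mean rose from 1115 ± 96.5 to 1392 ± 40.1 (log2 0.32, SE 0.07, limma adjusted p = 0.0454). This call was near the threshold. It held in 3 of the 14 fits that left out 1 array and in 8 of 13 other settings. The 5 that ended it included no filter (adjusted p = 0.0549), the mean of all probe sets (0.0531), no trend (0.0565) and the fit without both number 1 arrays (0.109). Among single arrays, it ended without wild type number 1, 4 or 5, without any 1 of the CD151KO arrays, and without CD9KO number 2, 3 or 5, which enter through the shared spread, at adjusted p from 0.0586 to 0.158, while the log2 difference stayed between 0.27 and 0.37.

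Abca3, whose product pumps phospholipid into lamellar bodies, read 2864, 2872, 2586 and 2297 on wild type arrays 1, 3, 4 and 5. CD151KO arrays 1 to 5 read 3402, 3116, 2941, 3106 and 3195, and CD9KO arrays read 2281, 2435, 2436, 2394 and 2741. Each CD151KO array was again above each array of the other groups. The log2 difference from wild type was 0.25 (SE 0.07) and did not pass (limma adjusted p = 0.109). A second of its 3 probe sets, at 932 ± 78.2 in wild type and 1151 ± 88.6 in CD151KO, passed when every probe set was tested (log2 0.30, adjusted p = 0.0383), and the third, at 123 ± 9.24 and 139 ± 5.76, did not (log2 0.16, adjusted p = 0.507).

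**Figure D2:**
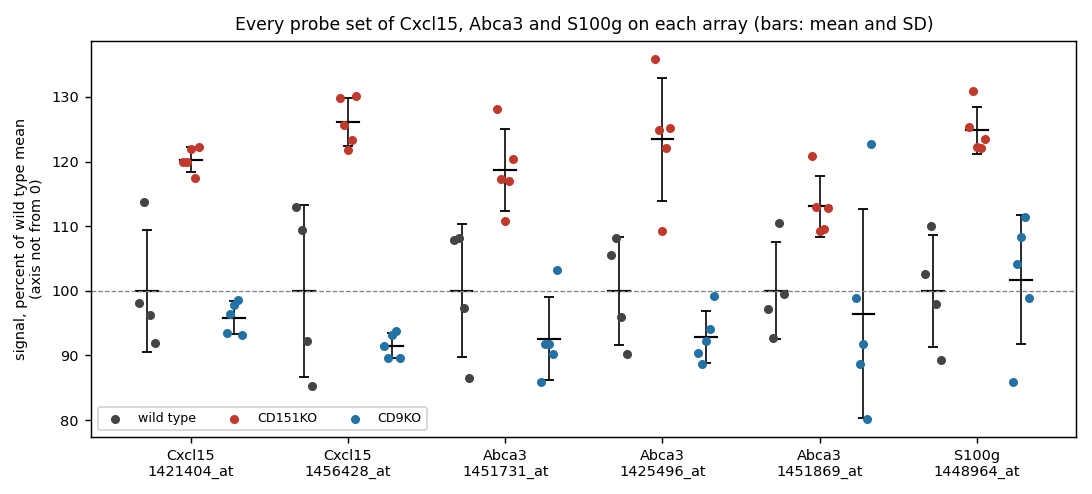
Signal of every probe set of Cxcl15, Abca3 and S100g on each array as a percentage of that probe set's wild type mean (dashed line, axis not from 0), with mean and SD as black bars for wild type (n = 4), CD151KO (n = 5) and CD9KO (n = 5). Both Cxcl15 probe sets average 120% and 126% in CD151KO and 95.9% and 91.5% in CD9KO, and the third Abca3 probe set has the widest CD9KO spread.

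The surfactant protein genes differed less, and the interval of each bounds the difference in the signal of its main probe set. Sftpb read 8476 ± 448 on the wild type arrays, 8892 ± 280 without CD151 and 8958 ± 333 without CD9, and the 95% interval of the CD151KO difference ran from -0.82% to 11.1% (adjusted p = 0.534). Sftpa1 read 19756 ± 683, 20136 ± 703 and 19230 ± 350 in the same order, with an interval of -2.50% to 6.53% for CD151KO (adjusted p = 0.80). Sftpd read 11518 ± 684, 11371 ± 611 and 11485 ± 655, with an interval of -8.42% to 6.46% (adjusted p = 0.933). Each of the 3 groups overlapped the others for these genes. For Sftpa1 a second probe set was available, at 8110 ± 850 in wild type and 8535 ± 425 in CD151KO (log2 0.08, adjusted p = 0.694 when every probe set was tested). Its 95% interval was wider, at log2 -0.05 to 0.21 against -0.04 to 0.09 for the main probe set. The main interval therefore does not bound the change of the gene.

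Sftpc sat at the top of the scale on every array, so its differences are bounded by the scale itself. Wild type arrays read 28497, 28787, 28765 and 28576, CD151KO arrays 28826, 28735, 28719, 29072 and 29212, and CD9KO arrays 28576, 28308, 28576, 28357 and 28790. These values were 96.3% to 100% of the highest signal on their array, at most 2 probe sets read higher, and the 14 arrays held 12 distinct values. Of the array maxima, which ran from 28497 to 29667, 6 were equal. The log2 difference of 0.01 (adjusted p = 0.839) therefore does not bound the SP-C transcript. A second Sftpc probe set, at 10.7 to 14.9 on all arrays, lay under the filter on low signal and was not tested.

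Napsa and Slc34a2 did not pass in lungs without CD151. Napsa read 5561 ± 151 in wild type and 5506 ± 280 in CD151KO (log2 -0.02, adjusted p = 0.927). Slc34a2 read 11818 ± 429 and 12034 ± 298 (log2 0.03, adjusted p = 0.807), with an interval of -2.53% to 6.43%.

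In lungs without CD9, 0 of the 9 genes passed by limma against wild type, beside 5.51% of all genes tested (2.88% higher and 2.63% lower), and 1 had an unadjusted p under 0.05, beside 25.4%. That gene was Napsa, which read 5642, 5702, 5541 and 5357 on wild type arrays 1, 3, 4 and 5 and 5013, 5004, 5382, 5212 and 5067 on CD9KO arrays 1 to 5. Only CD9KO number 3 reached into the wild type range, and the log2 difference was -0.11 (SE 0.04, adjusted p = 0.0775). Cxcl15 had a log2 difference of -0.06 (adjusted p = 0.456), Abca3 of -0.11 (adjusted p = 0.320) and S100g of 0.02 (adjusted p = 0.862). Sftpb had the highest difference, at 0.08 (95% interval -0.09% to 11.9%, adjusted p = 0.203), and with array weights it passed (log2 0.12, adjusted p = 0.0403). The median log2 difference of the 9 genes was -0.01, against 0.00 over all genes tested, and for 0 of 9 were the groups free of overlap, which held for 11.8% of all genes (6.64% higher and 5.19% lower).

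Set against each other, the knockouts differed in the same 3 genes that were highest in CD151KO. This comparison shares its CD151KO and CD9KO arrays with those against wild type and is no independent test of them. Abca3 was 1.28-fold higher in CD151KO than in CD9KO (3152 ± 168 against 2457 ± 171, n = 5 each, log2 0.36, SE 0.06, limma adjusted p = 0.0041). Cxcl15 was 1.25-fold higher (16090 ± 260 against 12823 ± 334, log2 0.33, SE 0.04, adjusted p = 0.0010). S100g was 1.23-fold higher (1392 ± 40.1 against 1135 ± 112, log2 0.30, SE 0.07, adjusted p = 0.0119). All 3 calls held in each of the 27 alternatives, including those without the number 1 arrays.

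Of the 9 genes 3 were thus higher in CD151KO than in CD9KO, 0 were lower and 6 did not pass, beside 10.1% of all genes that passed, 5.99% that were higher and 4.12% that were lower. An unadjusted p under 0.05 was found for 5 of the 9 and for 27.6% of all genes. For the same 3 the groups did not overlap, against 10.6% of all genes, 6.55% with CD151KO wholly above and 4.06% wholly below. The second probe set of Cxcl15 (log2 0.46, adjusted p = 8.1e-04) and of Abca3 (log2 0.40, adjusted p = 0.0016) passed when every probe set was tested. Sftpa1 (log2 0.07, adjusted p = 0.145) and Napsa (log2 0.10, adjusted p = 0.0868) had unadjusted p-values of 0.0344 and 0.0136 and did not pass. Sftpb, Sftpd and Slc34a2 had log2 differences of -0.01 each (adjusted p = 0.881, 0.880 and 0.816), with intervals of -5.89% to 4.72%, -7.76% to 6.31% and -4.88% to 3.35%.

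**Figure D3:**
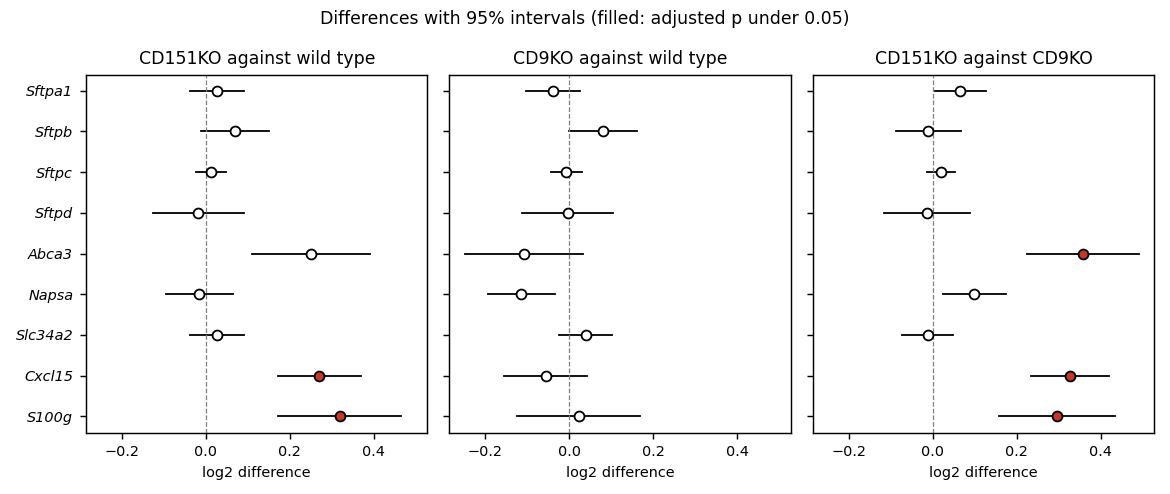
Log2 differences of the 9 genes in the 3 comparisons with 95% intervals from the fit, filled where the adjusted p was under 0.05. Filled points are Cxcl15 and S100g against wild type, and Abca3, Cxcl15 and S100g between the knockouts. The interval of Sftpc is the narrowest in each comparison.

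Over all 9 genes the array mean was 12.98 ± 0.07 for wild type, 13.08 ± 0.03 for CD151KO and 12.96 ± 0.04 for CD9KO. The higher CD151KO mean was not shared by all genes. Counted from the wild type mean, Abca3, Cxcl15 and S100g, picked from these same values, averaged 0.24 to 0.32 on CD151KO arrays and -0.16 to 0.15 on wild type arrays. The other 6 averaged -0.03 to 0.06 on CD151KO arrays and -0.04 to 0.05 on wild type arrays. CD9KO number 1 was the lowest of the 14 arrays for 3 of the 9 genes, and CD151KO number 5 the highest for 3.

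Within groups the 9 genes mostly moved together from array to array. After each group's mean was removed, 33 of 36 gene pairs had a correlation above 0 over the 14 arrays, with a median Pearson r of 0.43, a lowest of -0.20 (Sftpb with Sftpc) and a highest of 0.72 (Cxcl15 with Slc34a2). These are descriptions over arrays that share their normalization, with no test. The share was not taken over pairs of other genes, so 33 of 36 is not shown to exceed what other genes give. The genes outside the set most like the mean of the 9 were Hkdc1 (a hexokinase family gene), Thsd4, Fam229b, Tfcp2l1 (a transcription factor gene) and Slc26a4 (the anion exchanger pendrin), chosen from all genes tested as the 5 with the highest r, which ran from 0.82 to 0.84 (Spearman's rho 0.74 to 0.87). Without wild type numbers 3 and 5, the arrays farthest from the median, r of these 5 genes ran from 0.65 to 0.89. The correlations of the 36 pairs were not recomputed without those arrays.

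Promoter windows are shown for the 3 genes that were high in CD151KO and for Sftpb, which did not pass, so that the groups can be compared by eye. Each window runs from 250 bases before to 50 after a start site in a table made from RefSeq's GRCm38.p6 annotation, and 7 of the 10 genes had one. For 6 of the 7 that site is the outer bound of the gene, and for Abca3 it is position 24352023, which lies 102 bases inside the gene's bound at 24351921. Capitals mark matches, on either strand, to letters known to be bound by factors of type 2 cells or of lipid synthesis. The letters of NKX2-1 were CTCAAG and, as a second form, CAAGTG. Those of FOXA factors were TGTTTAC and, as a second form, TGTTTGC. C/EBP factors had TTGCNNAA and, as a second form, TTGCNNCAA, the lipid factor SREBP had TCACNCCAC, and the TATA box was TATAAA. The forms of a pair can overlap, and the motifs were chosen with the results known.
Cxcl15: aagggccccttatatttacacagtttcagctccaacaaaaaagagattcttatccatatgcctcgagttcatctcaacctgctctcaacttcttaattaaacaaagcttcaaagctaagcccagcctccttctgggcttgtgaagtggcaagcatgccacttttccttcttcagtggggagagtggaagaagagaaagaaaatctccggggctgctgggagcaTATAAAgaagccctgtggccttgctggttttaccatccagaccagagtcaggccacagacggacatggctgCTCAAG
S100g: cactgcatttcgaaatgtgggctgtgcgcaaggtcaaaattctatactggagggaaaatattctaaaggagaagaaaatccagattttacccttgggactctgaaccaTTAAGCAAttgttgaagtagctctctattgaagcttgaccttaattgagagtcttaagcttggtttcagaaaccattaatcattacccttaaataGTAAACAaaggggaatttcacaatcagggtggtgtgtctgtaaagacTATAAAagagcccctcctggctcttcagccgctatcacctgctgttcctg
Abca3: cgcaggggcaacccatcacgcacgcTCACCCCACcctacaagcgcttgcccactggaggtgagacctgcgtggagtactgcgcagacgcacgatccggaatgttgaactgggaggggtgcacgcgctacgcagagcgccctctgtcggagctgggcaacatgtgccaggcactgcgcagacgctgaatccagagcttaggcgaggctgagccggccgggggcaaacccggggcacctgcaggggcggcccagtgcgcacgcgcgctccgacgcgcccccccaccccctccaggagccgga
Sftpb: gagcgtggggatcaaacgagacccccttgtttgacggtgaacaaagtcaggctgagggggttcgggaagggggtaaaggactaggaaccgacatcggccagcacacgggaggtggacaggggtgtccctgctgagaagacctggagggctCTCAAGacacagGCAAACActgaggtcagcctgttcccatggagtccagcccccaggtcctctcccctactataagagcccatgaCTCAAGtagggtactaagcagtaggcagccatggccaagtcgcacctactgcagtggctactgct
The Cxcl15 window (chr5:90794284-90794583, plus strand) held a TATAAA at -27 to -22 and a CTCAAG at 45 to 50, counted from the window's start site. The S100g window (chrX:162964550-162964849, minus strand) held a FOXA match at -47 to -41, a C/EBP match at -142 to -135 and a TATAAA at 1 to 6. The Abca3 window (chr17:24351773-24352072, plus strand) held only a SREBP match at -225 to -217 from its own start site at 24352023, and the Sftpb window (chr6:72304360-72304659, plus strand) a pair of CTCAAG matches at -100 to -95 and -15 to -10 beside a FOXA match at -88 to -82.

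No single motif was found in the windows of all 3 genes high in CD151KO. NKX2-1 letters occurred in 3 of 7 windows of the set (Cxcl15, Sftpa1, Sftpb), against 26.4% of 32851 windows of all genes. FOXA letters occurred in 3 of 7 (Lamp3, S100g, Sftpb) against 8.48%, C/EBP letters in 2 of 7 (S100g, Slc34a2) against 12.6% SREBP letters in 1 of 7 (Abca3) against 1.24% and the TATA box in 3 of 7 (Cxcl15, S100g, Sftpa1) against 13.6%. A match is a stretch of letters and not a shown binding site.

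Genes listed for surfactant lipid synthesis made up the largest count of calls among the other lists when the knockouts were compared. Which cells of whole lung gave their signals was not tested. Of 14 listed, 13 were tested. In CD151KO against wild type 1 rose, 0 fell and 12 did not pass, beside 0.454% of all genes that rose and 0.323% that fell. The median log2 difference was 0.20 against 0.01 over all genes. The riser was Fasn, the fatty acid synthase gene (1652 to 2287, 1.38-fold, limma adjusted p = 0.0048), which passed in each of 26 alternatives. With array weights 5 of the list rose. In CD9KO 1 rose and 1 fell against wild type, beside 2.88% of all genes that rose and 2.63% that fell. Mfsd2a, a transporter of lysophosphatidylcholine, went from 90.5 to 162 (1.67-fold, limma adjusted p = 0.0149). Pcyt1a, which makes the CDP-choline for phosphatidylcholine, went from 970.2 to 796 (1.21-fold lower, adjusted p = 0.0089). Both lay on the same side of wild type in CD151KO, without overlap, but did not pass there. Mfsd2a had log2 0.48 (limma adjusted p = 0.169) and Pcyt1a log2 -0.17 (adjusted p = 0.0998). Neither passed between the knockouts (adjusted p = 0.206 and 0.0927), so these shifts are not shown to be particular to CD9KO.

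Between the knockouts 8 of the 13 lipid genes were higher in CD151KO, 0 were lower and 5 did not pass, beside 5.99% of all genes that were higher and 4.12% that were lower, with a median log2 difference of 0.28 against 0.00 over all genes. The 4 with the smallest p were Fasn (1.23-fold, adjusted p = 0.0074), Acaca, the acetyl-CoA carboxylase gene (1.30-fold, adjusted p = 0.0085), Elovl1, an elongase of very long chain fatty acids (1.35-fold, adjusted p = 0.0122), and Acly, the ATP citrate lyase gene (1.16-fold, adjusted p = 0.0127). The count fell to 5 without CD151KO number 1, to 5 without CD9KO number 4 and to 4 without CD9KO number 5, and was 6 without the number 1 arrays. Acaca did not pass with the mean of its probe sets (adjusted p = 0.0835).

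Genes of surfactant traffic and clearance, such as lamellar body and granulocyte-macrophage colony stimulating factor receptor genes, did not pass. Of 13 listed 12 were tested, and 0 passed limma's test in any comparison. For CD151KO against wild type, CD9KO against wild type and CD151KO against CD9KO, 1, 1 and 2 had an unadjusted p under 0.05. Of all genes 11.1%, 25.4% and 27.6% had such a p in that order, and 0.778%, 5.51% and 10.1% passed. Rab38, a GTPase gene of lysosome-related organelles, read 447 in wild type and 395 in CD151KO (log2 -0.17, adjusted p = 0.242), and P2ry2, the ATP receptor gene, 94.4 in wild type and 82.6 in CD9KO (log2 -0.16, adjusted p = 0.139).

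Transcription factors and receptors that direct type 2 cell genes passed in CD9KO in 3 cases. Of 13 tested, 0 passed in CD151KO against wild type by limma, beside 0.778% of all genes. An unadjusted p under 0.05 was found for 2, beside 11.1%. Cebpa, a C/EBP factor gene, read 925 in wild type and 1043 in CD151KO (log2 0.17, limma adjusted p = 0.0977). In CD9KO 1 rose and 2 fell, beside 2.88% of all genes that rose and 2.63% that fell. Nkx2-1, the lineage factor of lung epithelium, rose 1.22-fold (97.2 to 123, adjusted p = 0.0271), Fgfr2, the receptor for FGF7 and FGF10, fell 1.30-fold (2123 to 1625, adjusted p = 0.0122) and Nfib fell 1.13-fold (adjusted p = 0.0389). The CD9KO call of Fgfr2 passed in each of 26 alternatives. In CD151KO Fgfr2 read 1806, also under wild type, but overlapped it and did not pass (log2 -0.23, limma adjusted p = 0.170). It did not pass between the knockouts either, so its fall is not shown to be particular to CD9KO. The Nkx2-1 call ended without wild type number 3 or 4 or CD9KO number 4 or 5, and that of Nfib in 9 of 26, among them quantile normalization and leaving out any 1 of wild type 1, 3 and 4 or CD9KO 2 to 5. Between the knockouts 1 gene was lower in CD151KO, beside 4.12% of all genes, again Nkx2-1 (1.25-fold, limma adjusted p = 0.0074).

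Other products of type 2 cells were mixed. Of 14 tested, 0 passed limma's test in CD151KO against wild type, beside 0.778% of all genes, and 1 had an unadjusted p under 0.05, beside 11.1%. Beside 2.88% of all genes that rose and 2.63% that fell in CD9KO, 0 of the 14 rose and 3 fell. Those were Dram1, an autophagy regulator (5784 to 4680, 1.23-fold, adjusted p = 0.0054), Ppp1r14c, a phosphatase inhibitor gene (1496 to 1186, 1.26-fold, adjusted p = 0.0087), and Bex2 (916 to 507, 1.77-fold, adjusted p = 0.0129), each of which passed in 26 of 26 alternatives. Between the knockouts 6 were higher in CD151KO, 1 was lower and 7 did not pass, with a median of 0.04. Of all genes 5.99% were higher there and 4.12% lower. The same Bex2, Ppp1r14c and Dram1 were 1.96-fold, 1.27-fold and 1.26-fold higher in CD151KO than in CD9KO (adjusted p = 0.0014, 0.0011 and 5.1e-04), and Egfl6, an adhesion protein gene, was 1.15-fold higher (adjusted p = 0.0374). The Egfl6 call ended without CD151KO number 1, 2, 4 or 5 or CD9KO number 1, 2 or 5. The count of 6 fell to 3 without CD151KO number 1, 4 or 5 or CD9KO number 1 or 5. The single lower gene, Il33, named after its value was seen, lost its call when any 1 CD9KO array was left out, and likewise for CD151KO 1, 2 and 3 and wild type 3, 4 and 5.

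**Figure D4:**
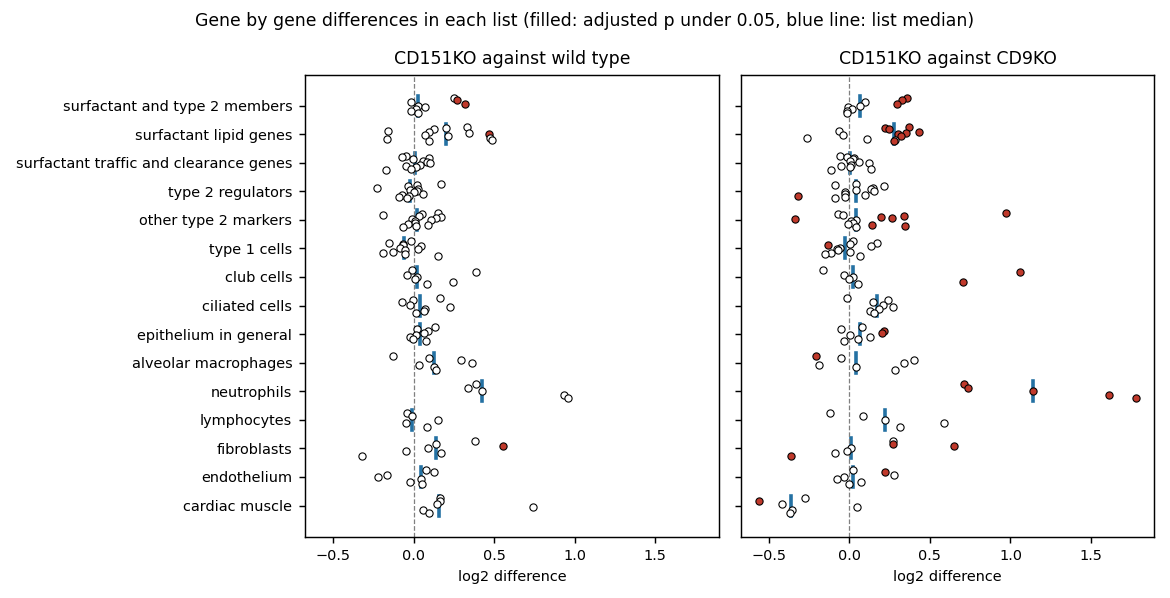
Log2 difference of each gene tested, by list, for CD151KO against wild type (left) and CD151KO against CD9KO (right), filled where the adjusted p was under 0.05, with the list median as a blue line. The surfactant lipid genes have the 8 filled points to the right of 0 between the knockouts, and the neutrophil markers have the highest median there, at 1.14.

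Markers of other lung cells were read beside these results, and their part in them was not tested. No measured marker of these lists lay under the filter on low signal. Against wild type in CD151KO, 0 of 12 type 1 cell, 7 club cell, 8 ciliated cell, 8 general epithelial, 7 macrophage, 5 neutrophil and 5 lymphocyte markers passed limma's test, while 3, 1, 0, 1, 1, 3 and 0 of them had an unadjusted p under 0.05. Of all genes 0.778% passed there and 11.1% had such a p. Between the knockouts 2 general epithelial markers and 2 club cell markers were higher in CD151KO, and 1 type 1 cell and 1 macrophage marker were lower. Of 26 alternatives these calls held in 25 for Epcam and Cldn7, 26 for Bpifa1, 22 for Scgb3a1, 20 for Clic5 and 26 for Car4. Of all genes 5.99% were higher in CD151KO than in CD9KO and 4.12% lower. Of 7 fibroblast markers 1 (Col3a1) was higher in CD151KO than in wild type, and 5 had an unadjusted p under 0.05, with a median log2 difference of 0.14. Between the knockouts 2 (Col3a1 and Col1a2) were higher in CD151KO and 1 (Tcf21) was lower. The Col3a1 call held in 18 of 26 alternatives against wild type and in 26 between the knockouts. Those of Col1a2 and Tcf21 held in 18 each. Of 7 endothelial markers 1 (Cldn5) was higher and of 6 cardiac markers 1 (Myh6) was lower in CD151KO than in CD9KO. These calls held in 11 and 17 of 26 alternatives. Against wild type in CD151KO 0 of either list passed, and 1 of each had an unadjusted p under 0.05. In CD9KO against wild type 1 fibroblast marker (Pdgfra) and 1 cardiac marker (Myh6) were higher and 1 endothelial marker (Emcn) was lower, and no marker of the other lists of lung cells passed. The calls held in 19 (Pdgfra), 21 (Myh6) and 20 (Emcn) of 26 alternatives. Of all genes 2.88% were higher and 2.63% lower in CD9KO than in wild type, and 25.4% had an unadjusted p under 0.05. Of the 6 cardiac markers 5 had an unadjusted p under 0.05 there, with a median log2 difference of 0.51, and their sum was 7769 to 10905 in CD9KO, 6004 to 7216 in wild type and 5394 to 9792 in CD151KO, so CD9KO and wild type did not overlap. The general epithelial markers summed to 19598 to 21127 in CD151KO, 19201 to 20538 in CD9KO and 19207 to 21111 in wild type, and type 1 markers to 70556 to 78226, 72855 to 77219 and 74252 to 78231 in that order. Club cell markers summed to 123201 to 129418, 116359.6 to 126962 and 122146 to 123367. In each of these 3 lists the ranges overlapped, but such sums are carried by the strongest probe sets. Among the club cell markers Bpifa1 and Scgb3a1 were 2.08-fold and 1.63-fold higher in CD151KO than in CD9KO.

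Neutrophil markers separated the knockouts as well. All 5 tested of 6 listed were higher in CD151KO than in CD9KO, beside 5.99% of all genes. Among the 5 were S100a9 (3.42-fold, limma adjusted p = 0.0081) and S100a8 (3.05-fold, adjusted p = 0.0093), which code for the subunits of calprotectin. The list summed to 3128 to 11055 in CD151KO, 2141 to 5603 in wild type and 1499 to 2137 in CD9KO, so CD151KO and wild type overlapped and CD9KO lay below both. Against wild type, 0 of 5 passed in CD9KO by limma, beside 5.51% of all genes, and 3 had an unadjusted p under 0.05, beside 25.4%. The median log2 difference was -0.68 there, while in CD151KO the median was 0.43. The count of 5 fell to 3 without CD151KO number 1 or 2 or CD9KO number 3, 4 or 5.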

How the data were processed

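The data were 14 arrays of mouse lung in 3 groups taken from the sample titles. The deposited values are normalized intensities on a linear scale, 1 per probe set and array, per the labels. The submitters' processing notes list Affymetrix Expression Console and MAS5, and the sources used here do not say which method summarised the probes. Gene symbols came from the platform's annotation table, and probe sets with several symbols, none, or a control name (64) were left out. The probe set with the highest mean stood for its gene. Genes under the 40th percentile of mean log2 level (a signal of 53.4) were left out, 5208 of 18193. Values were taken as log2(signal + 16), and limma 3.58.1 in R 4.3.3 fitted the 3 groups to all 14 arrays (lmFit, eBayes with a trend, 11 residual degrees of freedom). Tests were two-sided with Benjamini-Hochberg adjustment over 12985 genes, called at 0.05, and every adjusted p is limma's. No set test was run. The genes named were the 9 measured members, from each other list those that passed (up to 4 by smallest p, or 2 if 0 passed), and the 5 genes most like the members over arrays. The list rule was applied in each comparison, with some of the genes it allows left to counts. The members, lists, alternatives and motifs were chosen with earlier results of these data known. Precision is limited by the number of arrays. Plots used matplotlib 3.10.9 (Python 3.11.15). The closing section gives the effect of 27 alternatives.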

Additional observations from a re-analysis of the deposited data

Results flagged for a closer look

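Sftpd on CD9KO array number 1 stood apart from its group, at 10317 against 11732 to 11840 on the other 4 CD9KO arrays. The measure, Dixon's gap ratio, was applied to 27 groups of values (9 genes in 3 groups), and chance gives such a value in about 1 of 20 groups. The same array had the lowest signal of all 14 for 3 of the 9 genes. Leaving it out changed no call among the 9 genes between the knockouts.

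The effect of losing CD151 and that of losing CD9 differed by the test of the difference itself, the comparison of the knockouts, for 3 genes. The log2 difference between the effects was 0.36 for Abca3 (limma adjusted p = 0.0041), 0.33 for Cxcl15 (adjusted p = 0.0010) and 0.30 for S100g (adjusted p = 0.0119). All 5 CD151KO arrays lay above all 5 CD9KO arrays for each.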

How the results depend on the processing

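The count of genes of the set that passed in CD151KO against wild type was 2. It was 3 with array weights and with every probe set tested. It was 1 with no filter, with the mean of all probe sets, with only the compared groups in the fit, with no trend and with the replicate number as a block (replicate block), and 0 without both number 1 arrays, from wild type and CD151KO. Leaving out 1 array gave 0 to 2, with 0 without wild type number 4. The count between the knockouts was 3 in each alternative, and that in CD9KO was 0 except for 1 with array weights. The labels do not say that a replicate number pairs samples, and 6 of 13 same-number pairs of arrays had deviations correlated above 0.1 (range -0.13 to 0.59). Between wild type and CD151KO 3 of 4 did (0.59, 0.45 and 0.26, with -0.13 for number 3). Pairs of different number did so too, among them wild type 4 with CD151KO 5 (0.39) and wild type 5 with CD151KO 4 (0.33). Wild type 1 had -0.49 and -0.40 with CD151KO 4 and 5, and CD151KO 1 had -0.49 and -0.46 with wild type 4 and 5. A pairing was thus neither shown nor shown to be absent, and the source of this pattern was not tested. With the block S100g no longer passed against wild type (adjusted p = 0.0658). Averaging each gene's probe sets put the array mean of the 9 genes at 11.86 for wild type, 11.97 for CD151KO and 11.85 for CD9KO, since weaker probe sets enter it. The median log2 difference of the 9 genes moved by less than the spread between arrays (0.037) in each alternative run. That spread exceeds the medians against wild type, 0.027 for CD151KO and -0.007 for CD9KO, so it could not show a change of sign. Leaving out 1 array gave 0.016 to 0.050 for CD151KO and -0.030 to 0.007 for CD9KO. The platform, with signals of Sftpc at the top of the scale, limits that gene, and the number of arrays limits the rest.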
